A study of Homo sapiens with 12 samples.

Results

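NRF2, the transcription factor encoded by NFE2L2, its inhibitor KEAP1 and 7 antioxidant genes that are widely used as NRF2 targets were followed across the RNA-seq data: NQO1, GCLM, GCLC, TXNRD1, SRXN1, HMOX1 and ME1. They were selected by gene symbol, with earlier results of these data known, and all 9 were among the 11529 genes of the expression table. MDA-MB-468 and MDA-MB-231 are human triple-negative breast cancer cell lines, the first with an epithelial, basal-like character and the second with a mesenchymal one. Each was sequenced as 3 control and 3 SMARCA4 KO samples, which gave 4 groups and 12 samples. SMARCA4 encodes BRG1, an ATPase of the SWI/SNF complex, which moves nucleosomes. KO cells received Cas9 with 1 guide RNA against SMARCA4 from the lentiCRISPR-v2 vector and were selected with puromycin, and no step that picked single clones was described, so each KO group was a pool of edited cells. The genotype label of the control cells reads wild type, and although the study describes a non-targeting vector control, the labels do not state which of these the sequenced controls were. The labels name no drug that activates NRF2, and the study describes none for the sequenced cells. The levels below are therefore read as those of culture without such a drug.

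NRF2 is made continuously and is bound by KEAP1, which hands it to a ubiquitin ligase for degradation. Oxidants and electrophiles modify cysteines of KEAP1, NRF2 then escapes degradation, and it binds antioxidant response elements (ARE) in DNA together with a small MAF protein. The control is thus exerted largely on the protein, and the NFE2L2 transcript reports on NRF2 activity only in part, whereas the transcripts of the target genes are the usual readout. The targets supply reduced glutathione, thioredoxin and NADPH and detoxify quinones and haem. In tumor cells, high NRF2 activity is known to protect against reactive drugs.

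The ARE is a short sequence, and the stretches that carry it are shown here for NQO1 and TXNRD1, the genes whose expression passed the test after KO, and for ME1. The core TGACNNNGC was searched on both strands in the 1000 bases before the start of each gene's Ensembl canonical transcript (GRCh37, GENCODE 44), which can lie inside the full extent of a gene with longer transcripts. Each line below gives the core in capitals with 30 bases on either side, reading in the direction of transcription. The NQO1 stretch is chr16:69760880-69760948 on the minus strand, the TXNRD1 stretch chr12:104609428-104609496 on the plus strand, and the ME1 stretch chr6:84140869-84140937 on the minus strand.
NQO1: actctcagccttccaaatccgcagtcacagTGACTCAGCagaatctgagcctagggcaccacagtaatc
TXNRD1: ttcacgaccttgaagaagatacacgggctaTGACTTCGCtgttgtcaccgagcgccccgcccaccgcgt
ME1: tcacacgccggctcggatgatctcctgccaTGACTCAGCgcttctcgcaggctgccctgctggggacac
The first base of the core lies 455 bases before this start in NQO1, 99 in TXNRD1 and 137 in ME1. In NQO1 and ME1 the 9 letters TGACTCAGC also contain the AP-1 site TGANTCA, the sequence bound by JUN and FOS proteins, whereas the core of TXNRD1 does not. In all, 5 of the 9 genes had the ARE core in this window (NQO1, GCLM, GCLC, TXNRD1 and ME1), against 3696 of 10800 genes with such a window (34.2%). The AP-1 site was in the window of 6 of the 9 (NQO1, GCLM, GCLC, SRXN1, HMOX1 and ME1) against 18.5% of all. In the shorter RefSeq promoters (GRCh38.p14, 250 bases before to 50 after the start), the ARE core was present in 4 of the 8 genes with an entry and in 13.3% of 35116 promoters, and the AP-1 site in 1 of the 8 and in 7.71%. These are matches of letters, so an element with other letters or outside these windows was not counted. Binding was not measured.

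**Figure D1:**
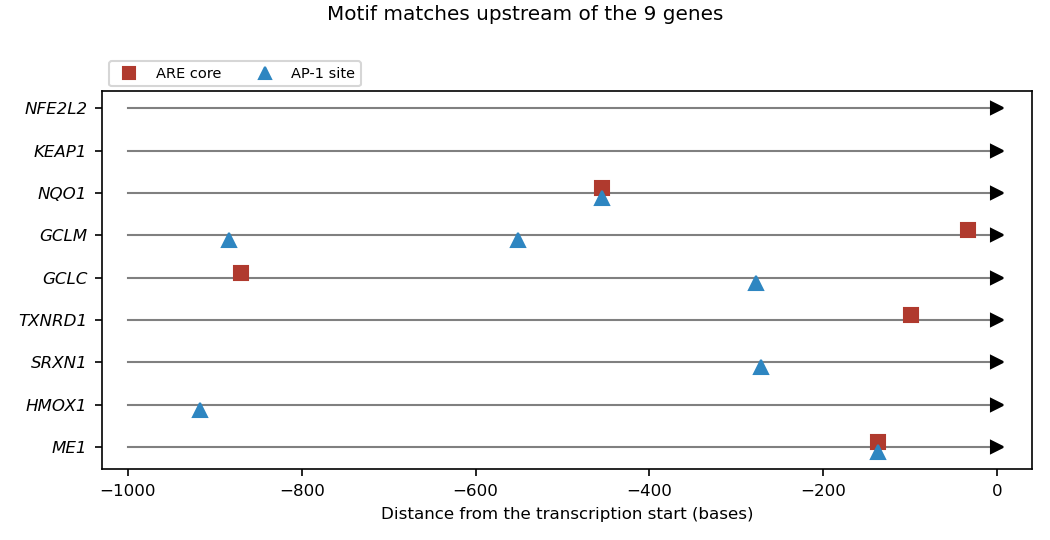
Positions of the ARE core TGACNNNGC (squares) and the AP-1 site TGANTCA (triangles) in the 1000 bases before the start of the canonical transcript (arrowhead) of the 9 genes; the x axis is the distance from the start in bases. In NQO1 and ME1 both marks fall at the same place, NFE2L2 and KEAP1 carry neither, and the cores nearest to a start are those of GCLM, TXNRD1 and ME1.

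Expression is given as the deposited log2(FPKM + 1), where FPKM is the number of fragments of a gene scaled to transcript length and to the size of the library, and differences (KO minus control) are on this scale with their SE from limma. A gene passed the test when its Benjamini-Hochberg adjusted p over all 11529 genes was under 0.05 and its log2 difference exceeded 0.5 in size. Replicate samples of a group correlated at 0.989 to 0.995 across genes. SMARCA4 itself lay at 6.61, 6.62 and 6.68 in the MDA-MB-468 controls and at 5.35, 5.48 and 5.61 in the KO samples, and at 6.10, 6.18 and 6.09 against 4.46, 4.64 and 4.56 in MDA-MB-231 cells. Its mean FPKM in KO was 44.3% and 32.7% of the control, so that transcript remained in both pools, and in bulk RNA fewer cells with the transcript and less transcript per cell cannot be told apart. The markers matched the labelled cell lines, with KRT5 at 0 to 0.24 FPKM in MDA-MB-231 and AXL at 0.03 to 0.11 FPKM in MDA-MB-468 samples. Summed over 7 epithelial markers, FPKM was 6385 to 6900 in KO and 5530 to 5743 in control samples of MDA-MB-468 cells, and 1209 to 1342 against 815 to 1225 in MDA-MB-231 cells. The keratins made up most of these sums. In MDA-MB-468 KO samples, mean FPKM was lower for CDH1 (85.2% of the control) and EPCAM (93.6%). It was higher for KRT8 (141%), KRT5 (126%), KRT18 (119%), CLDN4 (108%) and KRT19 (105%). The 4 mesenchymal markers in the table summed to 15.3 to 20.8 against 15.5 to 20.7 in MDA-MB-468 and to 1247 to 1361 against 1605 to 1830 in MDA-MB-231 cells. In MDA-MB-468 cells FN1 made up most of the sum and stood at 91.2% of the control in KO. VIM was at 143% there without passing, and ZEB1 and AXL were at 0.25 FPKM or less. Of these markers only CDH1 passed the test, in MDA-MB-231 cells (log2 difference 0.54, adjusted p = 0.0442). Its level there was very low, at 0.12 to 0.41 FPKM in the controls and 0.62 to 1.01 in KO samples. VIM in MDA-MB-231 (-0.39, adjusted p = 0.0309) and KRT8 in MDA-MB-468 cells (0.50, adjusted p = 0.0318) did not exceed the size limit. Of 4 leukocyte markers only CD14 was in the table, and it rose in MDA-MB-231 KO samples (1.18, adjusted p = 0.0294), from 0.79 to 1.39 FPKM in the controls to 2.65 to 4.9. Of the hormone receptor and ERBB2 list only ERBB2 was present, at 27.3 to 28.7 FPKM in KO and 23.3 to 24.5 in control MDA-MB-231 samples, and no fibroblast or endothelial marker was in the table. Their part in the results below was not tested.

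SMARCA4 KO changed 1 of the 9 genes in each cell line, and not the same one. NQO1 fell in MDA-MB-468 cells to 58.4% of the control FPKM, and TXNRD1 rose in MDA-MB-231 cells to 148%. Over all genes, 2.14% passed in the first cell line (1.33% higher and 0.815% lower in KO) and 3.7% in the second (2.39% higher and 1.31% lower). In MDA-MB-468 cells the median difference of the 9 genes was -0.03 beside 0.016 over all genes, and in MDA-MB-231 cells it was 0.05 beside -0.006. At an unadjusted p under 0.05, 3 of the 9 differed in MDA-MB-468 cells (KEAP1 higher, NQO1 and GCLC lower) and 2 in MDA-MB-231 cells (TXNRD1 and HMOX1, both higher), against 25.1% and 31.2% of all genes.

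**Figure D2:**
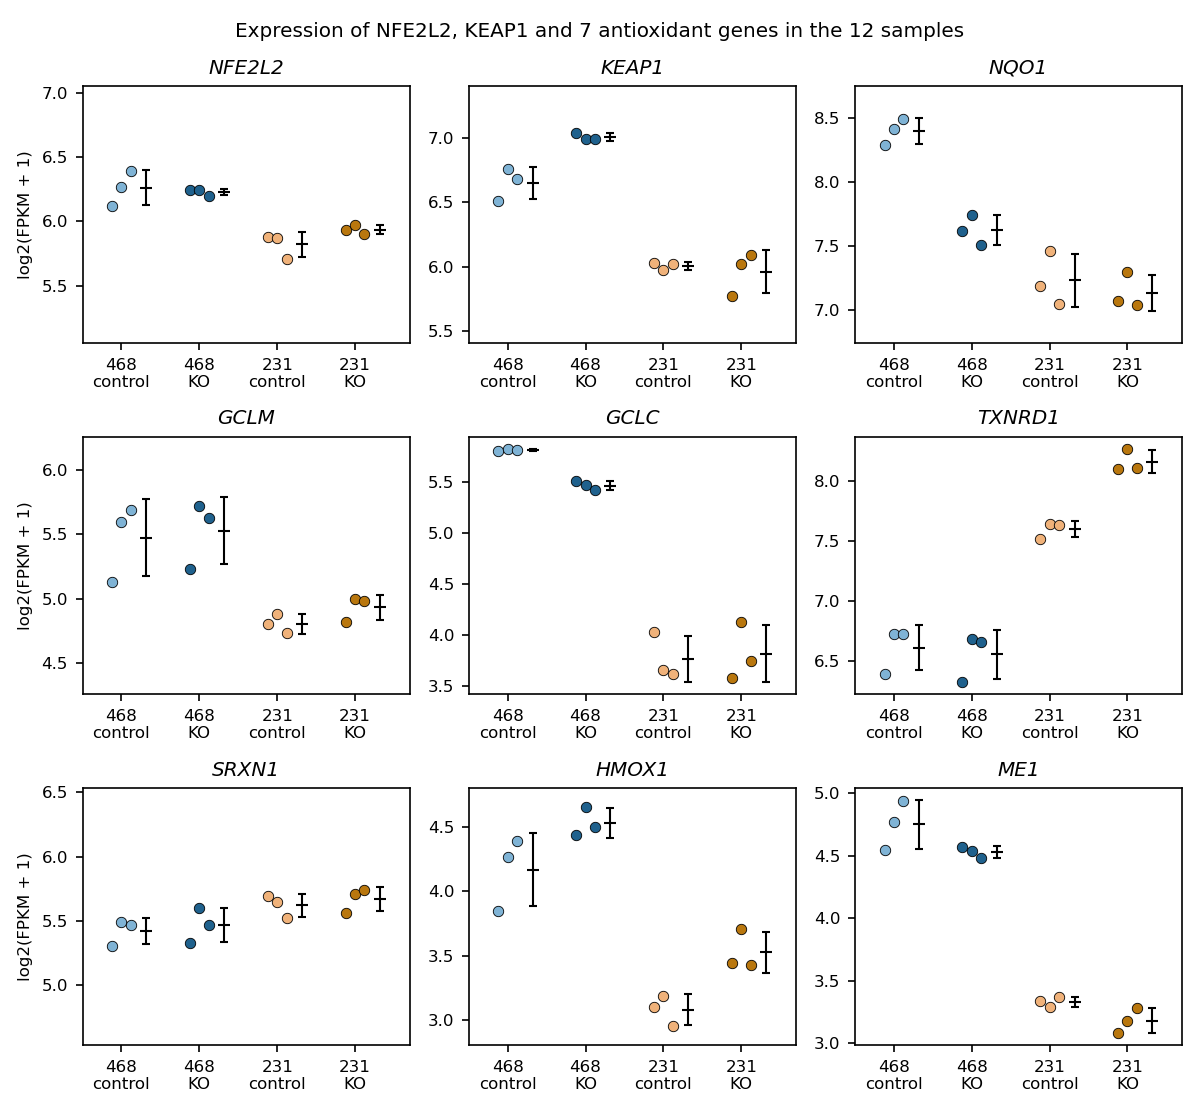
Expression of the 9 genes as log2(FPKM + 1) in every sample; points are samples in the order of their replicate number, and the bar beside them is the mean with its SD (n = 3 per group). Each panel has its own y axis, which does not start at 0. NQO1 separates the KO samples (7.51 to 7.74) from the controls (8.29 to 8.49) in MDA-MB-468 cells, and TXNRD1 does so in MDA-MB-231 cells (8.10 to 8.27 against 7.52 to 7.64).

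The regulator NFE2L2 and its inhibitor KEAP1 showed small differences. NFE2L2 lay at 6.12, 6.27 and 6.39 in the MDA-MB-468 controls and at 6.24, 6.24 and 6.20 in the KO samples, all of which fell inside the control range. The difference was -0.03 ± 0.08 (SE, n = 3 against 3) with a 95% confidence interval of -0.22 to 0.16 (adjusted p = 0.847). In MDA-MB-231 cells NFE2L2 was at 5.88, 5.87 and 5.71 in the controls and at 5.93, 5.97 and 5.90 in the KO samples. Here all KO samples were above all controls, as held for 16.6% of all genes in this comparison, and the difference of 0.12 (interval -0.03 to 0.27) did not pass (adjusted p = 0.257). A change of NFE2L2 transcript larger than 0.27 on the log2 scale lay outside the interval in either cell line.

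KEAP1, the adaptor that targets NRF2 for degradation, showed the larger difference of the pair. In MDA-MB-468 cells the controls were at 6.51, 6.76 and 6.68 and the KO samples at 7.04, 6.99 and 6.99. All KO samples lay above all controls, as for 17.5% of all genes, and the mean FPKM was 128% of the control, yet the difference of 0.36 ± 0.08 did not pass (adjusted p = 0.0609) and was under the size limit. In MDA-MB-231 cells KEAP1 was at 6.03, 5.97 and 6.02 in the controls and at 5.77, 6.02 and 6.09 in the KO samples. These groups overlapped, with KO replicate 1 alone below the controls (difference -0.04, interval -0.27 to 0.18). The KO differences of the cell lines differed by 0.40 (interval 0.13 to 0.68), with an adjusted p of 0.0525 that missed the threshold. KEAP1 lies on chromosome 19 from 10596801 to 10614234, 457374 bases from SMARCA4.

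NQO1, the quinone reductase that is the most used readout of NRF2, was the member with the largest KO difference. Its log2 values in MDA-MB-468 controls were 8.29, 8.41 and 8.49, which are 311 to 358 FPKM. In the KO samples they were 7.62, 7.74 and 7.51, or 181 to 212 FPKM. The groups were far apart, with all KO samples under all controls, as for 13.5% of all genes, and the fall was -0.77 ± 0.08 (interval -0.98 to -0.57, adjusted p = 0.0193). Blocking on the replicate number left the call at an adjusted p of 0.0498. The call was lost without control replicate 1 (adjusted p = 0.0508), control replicate 2 (0.101), control replicate 3 (0.0664), KO replicate 2 (0.0748) or KO replicate 3 (0.0706), and held without KO replicate 1 (0.0305), while the difference stayed between -0.83 and -0.71. In MDA-MB-231 cells NQO1 was at 7.19, 7.46 and 7.05 in the controls and at 7.07, 7.30 and 7.04 in the KO samples. These ranges overlapped, the difference was -0.10 (interval -0.41 to 0.22, adjusted p = 0.653), and the mean FPKM was 93.1% of the control. The test of the difference between the cell lines passed for NQO1, at -0.68 ± 0.16 (interval -1.02 to -0.33, adjusted p = 0.0183), where 8.71% of all genes passed (4.29% positive and 4.41% negative). It passed as well in each of the 12 fits that left out 1 sample, with adjusted p from 0.00758 to 0.0456.

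Neither member of glutathione synthesis passed the test in either cell line. GCLC and GCLM encode the catalytic and the modifier subunit of glutamate-cysteine ligase, the enzyme that limits the rate of glutathione synthesis. GCLC was at 5.81, 5.83 and 5.82 in MDA-MB-468 controls and at 5.51, 5.47 and 5.42 in KO samples. Its groups were tight and did not overlap, as for 13.5% of all genes with KO below control. The KO mean was 77.8% of the control FPKM, and the difference of -0.36 ± 0.04 had an adjusted p of 0.0254 but was under the size limit of 0.5. An adjusted p under 0.05 alone was reached by 3.75% of all genes. Blocked on the replicate number, GCLC had an adjusted p of 0.0563. In MDA-MB-231 cells GCLC was lower and more variable, at 4.03, 3.66 and 3.62 in the controls and 3.58, 4.13 and 3.75 in the KO samples. The groups overlapped fully (difference 0.05, interval -0.39 to 0.49). The difference between the cell lines was -0.41 (interval -0.82 to 0.01) and did not pass (adjusted p = 0.164).

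GCLM showed no KO difference beyond its spread. In MDA-MB-468 cells it was at 5.13, 5.60 and 5.69 in the controls and at 5.23, 5.72 and 5.63 in the KO samples. Replicate 1 was the lowest of its group in both, and the interval of the difference, -0.43 to 0.54, was the widest of the 9 genes in this cell line. In MDA-MB-231 cells GCLM was at 4.80, 4.88 and 4.73 in the controls, or 25.5 to 28.5 FPKM, and in the KO samples at 27.2, 31.1 and 30.7 FPKM, with a difference of 0.13 (interval -0.05 to 0.31, adjusted p = 0.275). In MDA-MB-468 cells the GCLC difference of -0.36 lay inside the wide interval of GCLM. The values therefore do not tell the subunits of the ligase apart, and the difference between the genes was not tested.

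TXNRD1 and SRXN1 serve the thioredoxin branch. TXNRD1 is the cytosolic thioredoxin reductase, which passes electrons from NADPH to thioredoxin. In MDA-MB-231 controls it was at 7.52, 7.64 and 7.63, or 183 to 199 FPKM, and in KO samples at 8.10, 8.27 and 8.11, or 274 to 308 FPKM. Every KO sample lay above every control, as for 16.6% of all genes, and the rise was 0.57 ± 0.07 (interval 0.40 to 0.73, adjusted p = 0.0121). Without KO replicate 2 the difference was 0.51 with an adjusted p of 0.051, and the call was lost. Blocking on the replicate number also ended the call. In MDA-MB-468 cells TXNRD1 was at 6.39, 6.72 and 6.72 in the controls and at 6.32, 6.68 and 6.66 in the KO samples. These groups overlapped almost fully, with a difference of -0.06 (interval -0.40 to 0.29, adjusted p = 0.84). The difference between the cell lines passed at -0.62 ± 0.16 (interval -0.97 to -0.27, adjusted p = 0.0266). That call was lost in 4 of the 12 fits with 1 sample left out, namely without MDA-MB-231 control replicate 1 (adjusted p = 0.058), MDA-MB-468 control replicate 2 (0.0594) or 3 (0.0534), or MDA-MB-231 KO replicate 2 (0.0662).

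SRXN1, sulfiredoxin, restores over-oxidised peroxiredoxins. It was the flattest of the targets, at 5.30, 5.49 and 5.47 in MDA-MB-468 controls and 5.33, 5.60 and 5.47 in KO samples, and at 5.69, 5.65 and 5.52 against 5.56, 5.71 and 5.74 in MDA-MB-231 cells. The groups overlapped in both cell lines. The differences were 0.04 (interval -0.19 to 0.27) and 0.05 (interval -0.13 to 0.23), so that a change of the size seen for NQO1 or TXNRD1 lay outside both intervals.

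HMOX1 encodes haem oxygenase 1, which degrades haem and is held down by the repressor BACH1 at the same elements that NRF2 binds. In MDA-MB-468 cells it was at 3.85, 4.27 and 4.39 in the controls and at 4.44, 4.66 and 4.50 in the KO samples. In MDA-MB-231 cells it was at 3.10, 3.19 and 2.95 in the controls and at 3.44, 3.71 and 3.43 in the KO samples. HMOX1 was the 1 member whose KO samples lay above the controls in both cell lines, at 129% and 142% of the control FPKM, but it passed in neither. Such separation held for 17.5% of all genes in MDA-MB-468 and for 16.6% in MDA-MB-231 cells. The share with it in both cell lines was not computed. The differences were 0.36 ± 0.15 (adjusted p = 0.212) and 0.45 ± 0.10 (adjusted p = 0.0495, under the size limit), and they did not differ between the cell lines beyond their error (-0.09, interval -0.50 to 0.32). In MDA-MB-231 cells an adjusted p under 0.05 alone was reached by 10.8% of all genes.

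ME1, cytosolic malic enzyme, makes NADPH from malate. It was at 4.55, 4.77 and 4.94 in MDA-MB-468 controls and 4.57, 4.54 and 4.48 in KO samples, and at 3.34, 3.29 and 3.37 against 3.08, 3.18 and 3.28 in MDA-MB-231 cells. The KO mean was the lower one in both cell lines, and the groups were apart only in MDA-MB-231 cells, as for 19.4% of all genes with KO below control. Neither difference passed, at -0.22 (interval -0.48 to 0.03, adjusted p = 0.251) and -0.15 (interval -0.31 to 0.01, adjusted p = 0.173).

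**Figure D3:**
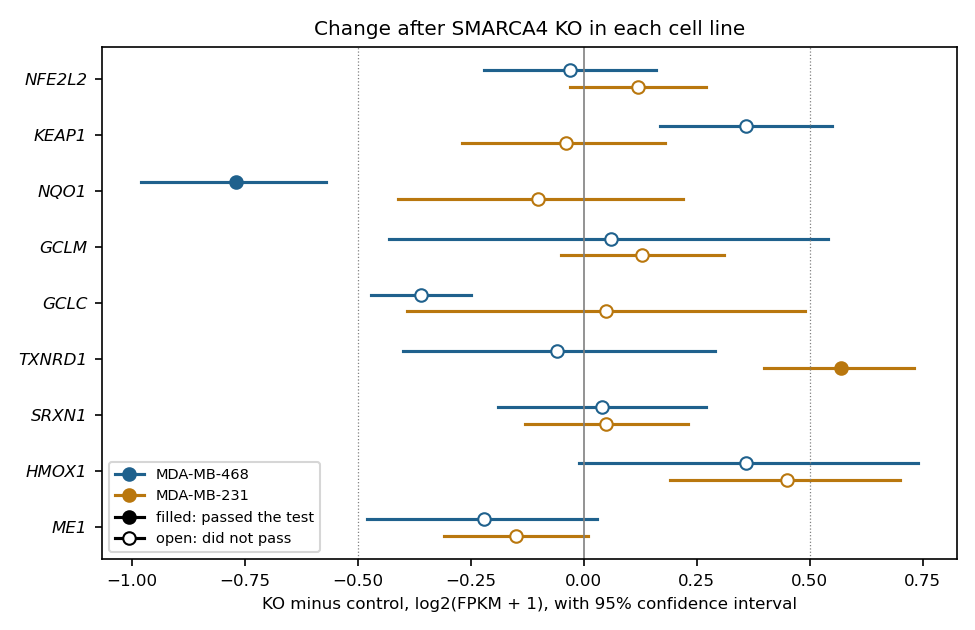
KO minus control difference of the 9 genes in log2(FPKM + 1) with its 95% confidence interval from limma, for MDA-MB-468 (blue) and MDA-MB-231 cells (orange), n = 3 against 3. Filled points passed the test and dotted lines mark the size limit of 0.5; only NQO1 in MDA-MB-468 (-0.77) and TXNRD1 in MDA-MB-231 cells (0.57) are filled.

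Between the control cells of the cell lines the same genes differed far more than after KO. Of the 9 genes, 6 were higher in MDA-MB-468 and 1 was lower, against 32.8% higher and 31.4% lower of all genes, so that 7 of 9 stands beside a background of 64.2%. The median difference of the 9 genes was 0.67, beside 0.012 over all genes. GCLC had the largest difference, at 2.06 ± 0.13 (adjusted p = 2.05e-08), or 437% of the MDA-MB-231 FPKM. ME1 followed at 1.42 ± 0.09 (287%), NQO1 at 1.16 ± 0.11 (223%) and HMOX1 at 1.09 ± 0.13, where the ratio of mean FPKM was 2.31. GCLM (0.67 ± 0.15) and KEAP1 (0.64 ± 0.09) also passed. TXNRD1 went the other way, at -0.98 ± 0.11 (adjusted p = 4.71e-06), with the MDA-MB-468 mean at 50.5% of that of MDA-MB-231 cells. NFE2L2 was 0.44 ± 0.08 higher in MDA-MB-468 cells (adjusted p = 0.000157), under the size limit, where 84.8% of all genes had an adjusted p under 0.05, and passed at 0.51 without MDA-MB-468 control replicate 1. SRXN1 was the closest pair, at -0.20 ± 0.09 (adjusted p = 0.0536).

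**Figure D4:**
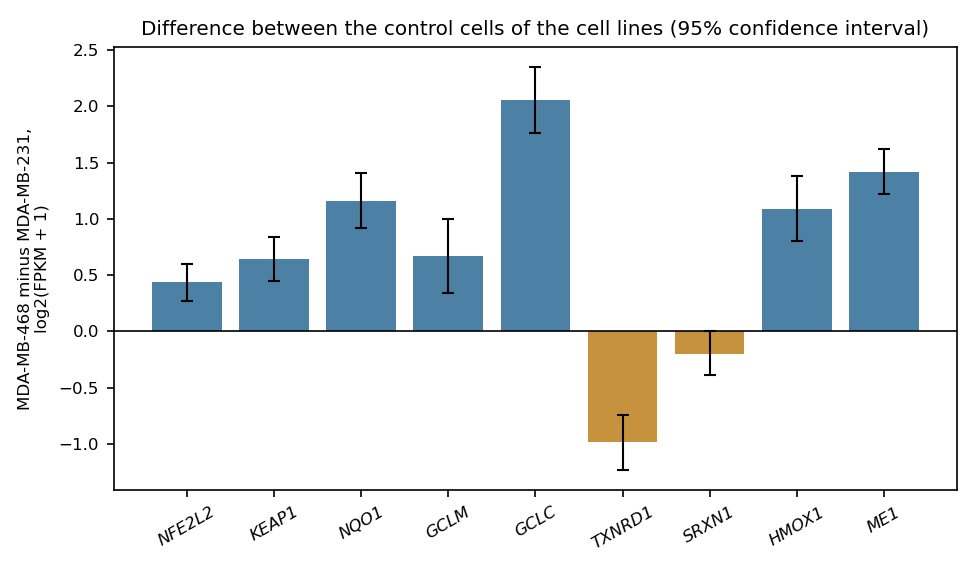
Difference between the control cells, MDA-MB-468 minus MDA-MB-231, in log2(FPKM + 1) for the 9 genes; bars start at 0 and carry the 95% confidence interval, n = 3 against 3. GCLC stands highest at 2.06, and TXNRD1 (-0.98) and SRXN1 (-0.20) are the bars below 0.

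Ordered by mean level, the 4 groups fell by cell line for every member. For NQO1 the order was MDA-MB-468 control (8.40 ± 0.10, SD), MDA-MB-468 KO (7.62 ± 0.12), MDA-MB-231 control (7.23 ± 0.21) and MDA-MB-231 KO (7.14 ± 0.15), and only the last pair overlapped. The lower NQO1 of MDA-MB-468 KO samples thus remained above every MDA-MB-231 sample. For TXNRD1 the order began with MDA-MB-231 KO (8.16 ± 0.10) and MDA-MB-231 control (7.60 ± 0.06), while the MDA-MB-468 control (6.61 ± 0.19) and KO (6.56 ± 0.20) overlapped at the bottom. Each of these changes took place in the cell line where that gene was the higher one. On the per-length scale of FPKM, NQO1 was the most abundant of the 9 genes in MDA-MB-468 controls (mean 336) and TXNRD1 in MDA-MB-231 controls (193), and HMOX1 was the least abundant in both (17.3 and 7.48).

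The wider pathway was read from 8 lists chosen with earlier results of these data known. They hold 93 further genes, of which 81 were in the table. In MDA-MB-468 cells 3 rose and 4 fell after KO (8.64% of the 81, against 2.14% of all genes), and in MDA-MB-231 cells 3 rose and 0 fell (3.7%, the same share as of all genes). Their median difference was -0.07 and 0.04. At an unadjusted p under 0.05, limma gave 9 higher and 21 lower genes among the 81 in MDA-MB-468 cells, and 11 higher and 16 lower in MDA-MB-231 cells, beside 25.1% and 31.2% of all genes in either direction. The genes of NRF2 control, such as the ligase scaffold CUL3, the KEAP1 competitor SQSTM1, the repressor BACH1 and the small MAF genes, had 0 of 12 passing in either cell line (limma; 2 of 12 at an unadjusted p under 0.05 in each). SQSTM1 differed by 0.22 and 0.11 and BACH1 by -0.07 and 0.05.

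Detoxification and export held most of the calls in MDA-MB-468 cells, with 2 of 28 genes higher, 4 lower and a median of -0.20. AKR1C3, a ketosteroid reductase, was at 2.42, 2.59 and 2.56 in the controls and at 1.36, 0.95 and 0.51 in the KO samples. This was a fall of -1.59 ± 0.21 (adjusted p = 0.03). The neighbouring AKR1C2 belongs to the same gene family. It was at 7.02, 7.28 and 7.42 against 6.40, 5.77 and 5.28 and did not pass (-1.42, adjusted p = 0.0598). Reads of related AKR1C genes may be split wrongly between them. ALDH3A1, an aldehyde dehydrogenase, went from 3.13, 2.55 and 2.68 to 1.91, 1.84 and 1.69 (-0.97 ± 0.16, adjusted p = 0.0399). GSTM3, a glutathione transferase with close paralogs, went from 4.66, 4.44 and 4.38 to 3.76, 3.74 and 3.64 (-0.78 ± 0.09, adjusted p = 0.0199). AKR1B10, which reduces aldehydes and retinal, fell less (-0.52 ± 0.09, adjusted p = 0.0487). At an unadjusted p under 0.05 (limma), 11 of the 28 were lower and 4 higher, beside 25.1% of all genes in either direction.

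GSTP1 and ABCC4 of the same list, and FTH1 of the haem and iron list, rose in the MDA-MB-468 KO samples. GSTP1, the pi-class glutathione transferase, went from 3.77, 4.03 and 4.52 to 5.35, 5.29 and 5.31 (1.21 ± 0.19, adjusted p = 0.0357). ABCC4, an exporter of conjugates and nucleotides, went from 1.55, 1.75 and 1.83 to 2.49, 2.62 and 2.75 (0.91 ± 0.10, adjusted p = 0.0199). FTH1, the ferritin heavy chain, went from 11.34, 11.66 and 11.80 to 12.35, 12.47 and 12.46 (0.82 ± 0.12, adjusted p = 0.0345), and it has many processed pseudogenes that could share its reads. In all 3 genes the KO samples stood clear of the controls, as for 17.5% of all genes with KO above control. Blocked on the replicate number, AKR1C3 (adjusted p = 0.0569), ALDH3A1 (0.0505), AKR1B10 (0.0862) and GSTP1 (0.06) no longer passed, while ABCC4, FTH1 and GSTM3 did. Leaving out 1 sample ended each of these 7 calls in at least 5 of 6 fits. The exceptions were the fit without KO replicate 1 for ABCC4, FTH1, GSTM3, AKR1B10 and AKR1C3 and the fit without control replicate 3 for GSTP1.

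In MDA-MB-231 cells the 3 further genes that rose came from different lists. ALDH3A1, which fell in MDA-MB-468 cells, was at 0.59, 1.12 and 0.87 in the controls and at 1.96, 2.38 and 1.81 in the KO samples (1.19 ± 0.19, adjusted p = 0.0251). PIR, an iron-binding nuclear protein, was at 3.04, 3.44 and 3.16 against 3.73, 4.02 and 4.00 (0.70 ± 0.13, adjusted p = 0.0326). Both of these genes had KO samples above all controls, as for 16.6% of all genes. TXNIP, which binds and inhibits thioredoxin, was at 6.04, 6.01 and 6.10 against 6.94, 6.96 and 6.70 (0.82 ± 0.08, adjusted p = 0.00954), and it is listed at 0 in all MDA-MB-468 samples. The rise of TXNRD1 thus stood beside a rise of a thioredoxin inhibitor, while the other 9 genes of the thioredoxin and peroxiredoxin list did not pass. All 7 haem and iron genes had a positive difference here, from 0.05 for BLVRA to 0.55 for BLVRB, without any passing. By limma, 2 of the 7 had an unadjusted p under 0.05, beside 31.2% of all genes. All 4 genes of the NADPH supply list had a negative difference in both cell lines, also without any passing. The median over all genes in MDA-MB-231 cells was -0.006. With 1 sample left out, PIR passed only without control replicate 2, and ALDH3A1 only without control replicate 2 or KO replicate 3. TXNIP was lost only without KO replicate 2 (adjusted p = 0.0507).

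**Figure D5:**
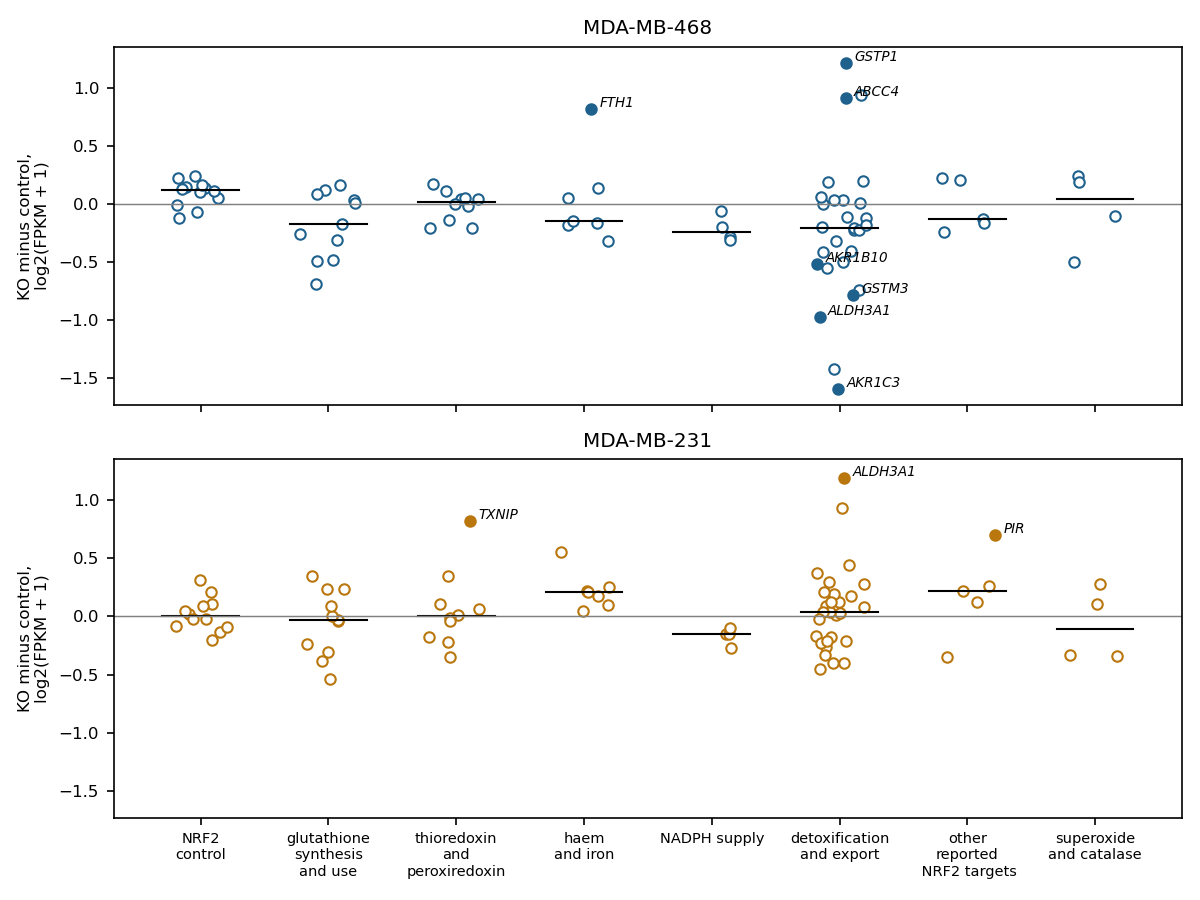
KO minus control difference in log2(FPKM + 1) of the 81 further pathway genes, by list (x axis), in MDA-MB-468 (top) and MDA-MB-231 cells (bottom); each circle is a gene, filled circles with a name passed the test, and the black line is the list's median. The detoxification and export list spreads from -1.59 (AKR1C3) to 1.21 (GSTP1) in MDA-MB-468 cells, and the filled genes are all above 0 in MDA-MB-231 cells.

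The KO differences of 14 of the 81 genes differed between the cell lines (17.3%, against 8.71% of all genes), with 4 more positive in MDA-MB-468 and 10 more positive in MDA-MB-231 cells. Among them was ALDH3A1, at -2.16 (adjusted p = 0.000612), which passed in opposite directions in the cell lines. Between the control cells, the further genes with the largest absolute differences were AKR1C2 (6.78 higher in MDA-MB-468 cells), AKR1B10 (5.85 higher) and GPX3, a secreted glutathione peroxidase, which was lower at -5.90. TXNIP and GSTM1 also belonged to these 5 and are listed at 0 in MDA-MB-468 cells, so no fold is given for them. Of the 81 genes, 29 were higher and 30 lower in MDA-MB-468 controls (72.8%, beside 64.2% of all genes), with a median difference of 0.15.

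The members were also compared by their course over the 12 samples after the mean of each cell line was taken off. The points share 2 cell lines and the KO contrast, so the correlations describe these samples only. NQO1 ran most closely with LYPD6B (Pearson r 0.961), KCTD1 (0.943) and DCTN6 (0.932), TXNRD1 with POMGNT2 (0.956), STRBP (0.946) and ALDH1A3 (0.944), and NFE2L2 with CYP1B1 (0.940), CYP26B1 (0.923) and L3HYPDH (0.889), among 10187 genes. None of these was a member. Among the members, NQO1 correlated with GCLC at 0.68, with ME1 at 0.64 and with KEAP1 at -0.70, but with TXNRD1 only at 0.07. TXNRD1 correlated with HMOX1 at 0.73 and with GCLM at 0.67. NFE2L2 correlated with HMOX1 at 0.68, with TXNRD1 and GCLM at 0.62 and with NQO1 at 0.30. Pairs among the other members were not compared.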

How the data were processed

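The authors trimmed the reads (TruSeq Stranded mRNA libraries), used STAR with hg19 for alignment and RSEM for FPKM, and deposited log2(FPKM + 1) of the genes whose mean and SD of FPKM were at least 1. The depth is unknown and no counts were used. In 18 rows a date replaced the symbol; these entered the tests.

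KO and control samples of 1 cell line at a time were compared by limma (3.58.1, with R 4.3.3) on the log2 values. The difference between the cell lines and the comparison of control cells came from 1 fit of all 12 samples. Nothing says that replicates were separate cultures, so p-values measure the spread between these samples. The fits were tested on simulated data. In MDA-MB-468 cells, control and KO samples with the same number in the title deviated together (correlations 0.273, 0.207 and 0.153). In MDA-MB-231 cells they did not, although there the title numbers and the numbers after p in the descriptions agree. No label states that samples were paired. The main tests therefore used no pairing, and the replicate number served as a block in further fits.

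All members, pathway genes that passed after KO, the 5 with the largest difference between control cells, and the 3 genes most like NFE2L2 and each member that passed are named. AKR1C2 after KO, SQSTM1, BACH1, BLVRA and BLVRB were named after their values were seen. Members and lists were chosen with earlier results of these data known. Sequences are from GRCh37 and RefSeq; 8 of the 9 members matched a RefSeq promoter. 1 item of the lists is not reported here.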

Additional observations from a re-analysis of the deposited data

Results flagged for a closer look

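The members, the named pathway genes and the markers CDH1, CD14, ERBB2, KRT5 and AXL were examined here. The KO difference of 12 of these genes differed between the cell lines by the interaction test of limma (MDA-MB-468 minus MDA-MB-231, log2 scale, n = 3 per group). Among the members these were NQO1 (-0.68, adjusted p = 0.0183) and TXNRD1 (-0.62, adjusted p = 0.0266). Over all genes, 8.71% passed the interaction test. The further pathway genes had been named for passing after KO, for differing between control cells or after their values were seen. The 12 are thus no count over genes chosen beforehand. NQO1 was lower in KO samples of MDA-MB-468 cells in 3 of 3 samples, and TXNRD1 higher in 3 of 3 KO samples of MDA-MB-231 cells. All KO samples lay below all controls for 13.5% of all genes in MDA-MB-468 cells, and above them for 16.6% in MDA-MB-231 cells. Among the further pathway genes, the differences were positive for GSTP1 (1.18) and ABCC4 (0.83). They were negative for ALDH3A1 (-2.16), AKR1C2 (-1.72), AKR1C3 (-1.38), GSTM3 (-0.82) and BLVRB (-0.73), as for the markers CD14 (-1.75) and CDH1 (-0.76). Outside these 12, the mesenchymal marker VIM also passed, with a positive difference (0.81, adjusted p = 0.0192). For TXNIP the value of -0.82 is that of MDA-MB-231 cells with its sign turned, since the gene is listed at 0 in MDA-MB-468 cells.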

How the results depend on the processing

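The values of named genes kept their direction and their side of the threshold in 633 of the comparisons with another setting, lost the call in 38, gained it in 3 and turned in 3. NQO1 in MDA-MB-468 and TXNRD1 in MDA-MB-231 cells kept their calls with a pseudocount of 0.1, the filter on low values, the intensity trend, both scalings, 1 fit of all samples and the GC and length correction, which was added after seeing the data. Differences rose with GC content of the transcript (Spearman 0.307 and 0.288 across genes for the KO differences of MDA-MB-468 and then MDA-MB-231), and corrected KEAP1 stood at 0.27 in MDA-MB-468 cells.

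In MDA-MB-468 cells, 247 genes passed. Their number was 400 with the filter, 53 with a log2 limit of 1, 537 in 1 fit of all samples, 381 with the correction, 474 with block and correction, and 0 when samples were blocked by the p number of the descriptions (smallest adjusted p = 0.127). Only the p numbers 26 and 27 occurred in both control and KO samples. The block by p number thus left little from which to estimate the spread, and its 0 calls decide nothing. With the limit of 1 and with the block by p number 0 members passed. With the replicate block 241 genes and 1 member passed. Without control replicate 1, 2 or 3, the genes passing numbered 27, 0 and 12. Without KO replicate 1, 2 or 3, they numbered 474, 0 and 5. The fit without KO replicate 1 kept 1 member, and the other fits that left out 1 sample kept 0. In MDA-MB-231 cells, 426 genes passed, 85 with the limit of 1 and 0 with the replicate block (smallest adjusted p = 0.052), and 0 members in either. The labels do not say whether the shared numbers mark pairs there (same-number correlations -0.0766, 0.0808 and -0.151). TXNRD1 had an adjusted p of 0.0707 under the block. Leaving out 1 sample gave 99 to 311 genes, lowest without KO replicate 2, and 0 to 1 members. The difference between the cell lines gave 1004 genes, 217 and 0 members with the limit of 1, 992 and 2 members with the replicate block, and 724 to 1190 genes and 1 to 2 members with 1 sample left out. Control cells gave 7397 genes, 4148 and 4 members with the limit of 1, and 7354 to 7419 and 7 to 8 members with 1 sample left out. The share of higher genes moved from 61.9% to 51.1% (MDA-MB-468, block and correction) and with 75th percentile scaling from 49.3% to 39.2% (difference between the cell lines). The causes were not tested.

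The signs that turned belonged to differences near 0. Blocked by p number, NFE2L2 stood at 0.03 and TXNRD1 at 0.12 in MDA-MB-468 cells. AKR1B10 stood at 0.12 between the cell lines with a pseudocount of 0.1. With 1 sample left out, the ranges were -0.10 to 0.04 for NFE2L2, -0.12 to 0.21 for GCLM, -0.17 to 0.06 for TXNRD1 and -0.03 to 0.11 for SRXN1 in MDA-MB-468 cells. In MDA-MB-231 cells they were -0.11 to 0.05 for KEAP1, -0.19 to 0.02 for NQO1, -0.11 to 0.18 for GCLC, -0.05 to 0.14 for GSTM3 and -0.02 to 0.09 for GSTP1. Between the cell lines they were -0.25 to 0.08 for GCLM, -0.07 to 0.06 for SRXN1, -0.24 to 0.02 for HMOX1 and -0.17 to 0.02 for ME1. The depth behind the values is unknown, so no counting error can be given.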

Other observations

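KEAP1 and SMARCA4, the gene cut by Cas9, lie on the same arm of chromosome 19. Within 1 megabase on each side of SMARCA4 the table holds 49 genes. After KO, 34 of them had a positive and 15 a negative difference in MDA-MB-468 cells (median 0.11), where KEAP1 ranked 5 from the highest, and 19 and 30 in MDA-MB-231 cells (median -0.08), where it ranked 22. The medians over all genes were 0.016 and -0.006. In MDA-MB-468 cells 2 of the 49 genes passed the test as higher and 1 as lower (6.12%). In MDA-MB-231 cells 2 passed as higher and 0 as lower (4.08%). These few genes stand beside 2.14% and 3.7% of all genes. This neighbourhood was examined after the values of KEAP1 had been seen.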
